A study of Homo sapiens with 10 samples.

Results

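The genes described here encode the protein components of the mitochondrial ribosome. They were taken as every line of the count table whose symbol has the form MRPL or MRPS followed by a number and, in some, a letter from A to C, and there were 78 of them among 58735 lines. By the position of their products in the mammalian mitochondrial ribosome, 51 belong to the large subunit and 26 to the small subunit. The proteins of MRPS30 and MRPS18A, named for the small subunit, sit in the large one (mL65 and mL66). The 1 gene in neither class is MRPS36, whose product is now assigned to the alpha-ketoglutarate dehydrogenase complex. Membership was set by name and not by a measured value, but the set was chosen with earlier results of these data known.

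The cells, HCMECs by label, are a human endothelial line of the brain, and their mRNA was sequenced. In 5 libraries the cells had received an siRNA against USP9X (siUSP9X), a deubiquitinase, and in the other 5 a control siRNA (siCtrl). Both groups were transfected for 48 h and then given Wnt3a, a Wnt pathway ligand, for 12 h, and no cells without Wnt3a were analysed here. Whether replicates were independent cultures is not stated in the labels, and p-values therefore reflect only the variation among these libraries, possibly technical.

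Mitochondria keep their own ribosome, which translates the few messages of mitochondrial DNA into core subunits of the respiratory chain and of ATP synthase. Its ribosomal RNAs, MT-RNR1 and MT-RNR2, are transcribed inside the organelle, whereas all of its proteins are encoded in the nucleus, made in the cytosol and imported. Many of these proteins descend from bacterial ribosomal proteins, and others were added during the evolution of mitochondria. Brain endothelium is known for a high mitochondrial content, and its barrier relies on active transport.

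USP9X mRNA stood at 35.2 ± 19.8 CPM in siUSP9X cells and 341 ± 48.6 CPM in siCtrl cells (SD, n = 5 each; CPM are counts per 1e+06 of the scaled library total); the log2 fold change was -3.28 ± 0.32 (SE). Its edgeR adjusted p was 0.000403, and the 2 groups did not overlap. In siUSP9X replicates 1 to 5 USP9X stood at 36.5, 68.8, 27.6, 22.4 and 20.7 CPM, so replicate 2 held the most. Library totals ran from 15958362 to 20442278 counts in siUSP9X and from 17716250 to 26467787 counts in siCtrl. Of the endothelial markers, ESAM, PROCR and ENG were well measured, with siCtrl means of 161, 90.3 and 84.1 CPM. PECAM1 had 8 counts in each group, and ERG had 0 counts in both. KDR had 2 counts in siUSP9X and 4 in siCtrl, and VWF 4 and 5, so several defining markers of the labelled cell type were at or near 0. The summed level of 12 endothelial markers ran from 157.7 to 364 CPM in siUSP9X and from 319 to 392 CPM in siCtrl. The summed level of 7 epithelial markers, nearly all of it KRT8 and KRT18, ran from 2031 to 2759 CPM in siUSP9X and from 3317 to 4179 CPM in siCtrl. Leukocyte markers summed to at most 0.176 CPM in any siUSP9X library and 0.105 CPM in any siCtrl library. The part of these markers in the results below was not tested. In bulk RNA, fewer cells of a type and less RNA per cell cannot be told apart.

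The siUSP9X replicate 2 library stood apart from the other 4 siUSP9X libraries, and results are given with all 10 libraries and again without it. Of the 76 members that could be tested, 58 had their lowest siUSP9X level in that library and 13 their highest. The median log2 ratio of replicate 2 to the mean of the other siUSP9X libraries was -0.82 over these members and -0.03 over 13862 tested genes with an annotated transcript.

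To show where the members are read from, the upstream sequence of 3 of them is printed, each 100 bases ending at the base before the start of transcription in RefSeq (GRCh38.p14). These are the members whose window holds no annotated exon and does hold the ETS word CCGGAAG, in capitals, the core bound by ETS factors such as GABPA, an activator of nuclear genes for mitochondrial proteins. MRPS18A and MRPL58 fell without siUSP9X replicate 2, and MRPS31 did not pass the threshold, so the word stands in members of both kinds.
MRPS18A (chr6:43687792-43687891, minus strand): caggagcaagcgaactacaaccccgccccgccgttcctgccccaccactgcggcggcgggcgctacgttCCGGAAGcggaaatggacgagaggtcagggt
MRPL58 (chr17:75012570-75012669, plus strand): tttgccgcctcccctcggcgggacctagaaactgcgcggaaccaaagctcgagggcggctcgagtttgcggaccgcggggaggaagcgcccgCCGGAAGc
MRPS31 (chr13:40771191-40771290, minus strand): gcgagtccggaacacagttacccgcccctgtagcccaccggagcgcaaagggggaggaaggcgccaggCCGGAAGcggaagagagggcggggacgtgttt

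Across RefSeq promoters of 300 bases, from 250 before the start of transcription to 50 after it, 69 of the 78 members had an entry. Both strands were searched for the ETS word CCGGAAG, the YY1 word AANATGGCG, where N is any base, and the NRF1 word, which is GCGCA, any base, then GCGC. Matches of the ETS and YY1 words can share bases. The ETS word stood in 29 members (42.0%), in 20.1% of 9912 tested genes with an entry and in 10.7% of all 27305 promoters. The YY1 word stood in 18 members (26.1%), in 7.11% of those tested genes and in 3.37% of all promoters. The NRF1 word stood in 8 members (11.6%), in 12.2% of those tested genes and in 6.29% of all promoters. Among the members that fell without siUSP9X replicate 2, 7 of 18 held the ETS word (38.9%), as did 22 of the other 50 tested members with an entry (44%). A match is a description of letters, not of a bound site.

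With all 10 libraries, edgeR's quasi-likelihood test placed 1 of 76 tested members lower in siUSP9X cells and 0 higher, by an adjusted p below 0.05 (Benjamini-Hochberg over 13934 genes). Over all tested genes, 3.22% were lower and 4.09% higher. The members' share of 1.32% lower rested on 1 call, so it was not read as different from the background. At an unadjusted p under 0.05 there were 15 of the 76 members and 3877 of the 13934 genes. DESeq2 called 5 members lower (6.58%) and 1 higher (1.32%), where it called 7.74% of all genes lower and 9.07% higher. The log2 fold change was negative for 63 members and positive for 13, with a median of -0.27, and the median over all tested genes was 0.03. Of the 76 members, 9 had every siUSP9X library below every siCtrl library (6.85% of all genes did) and MRPL30 alone had every siUSP9X library above (7.79% of all genes).

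Without siUSP9X replicate 2, 18 members were lower (23.7% of 76) and 1 was higher, where 11.5% of 14086 tested genes were lower and 11.9% higher. The log2 fold changes of the 18 ran from -0.50 to -0.26, and the median over all 76 members was -0.16, against 0.01 over all tested genes. Their levels lay below those of siCtrl without overlap in 9 of the 18, and over all members this was so for 11 (9.48% of all tested genes), while MRPL30 alone lay above without overlap (10.4% of all tested genes). The members that fell were MRPL3, MRPL4, MRPL11, MRPL18, MRPL22, MRPL28, MRPL36, MRPL39, MRPL41, MRPL49, MRPL54, MRPL58 and MRPS18A of the large subunit, and MRPS2, MRPS15, MRPS18B, MRPS21 and MRPS26 of the small subunit. MRPL58 is a peptidyl-tRNA hydrolase built into the large subunit, and MRPL11 belongs to the base of the stalk that receives the elongation factors. The median transcript GC content of the 18 was 52.9%, against 47.5% in the other 58, and the part of GC content in these calls was not tested beyond the offsets given below.

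**Figure D1:**
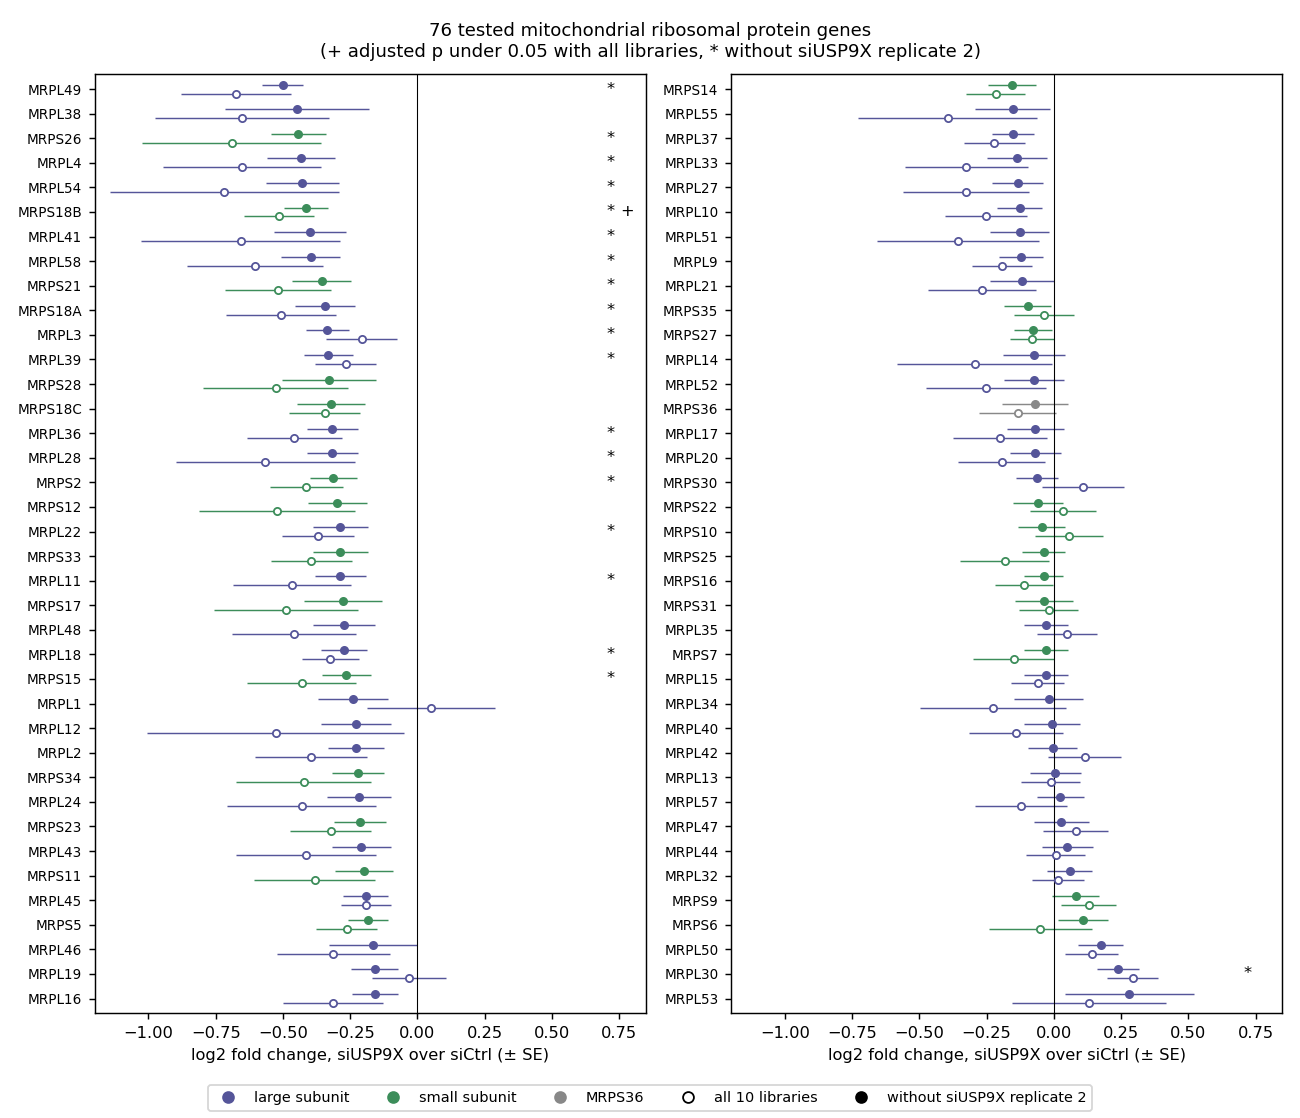
Log2 fold change (siUSP9X over siCtrl, with SE) of the 76 tested members, ordered by the value without siUSP9X replicate 2, for all 10 libraries (open symbols) and without that library (filled symbols), coloured by subunit. Symbols lie left of 0 for 63 members with all libraries and for 66 without the library, and the right-hand marks show 1 call (+) and 19 calls (*).

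Among the small subunit genes, MRPS18B passed the threshold with all libraries. MRPS18B encodes mS40, 1 of the 3 human relatives of bacterial protein S18 (chr6:30617709-30626395, plus strand, GRCh38, gene ENSG00000204568.11). Its level was 55.1, 36.5, 54.5, 54.0 and 52.9 CPM in siUSP9X replicates 1 to 5, and 64.6, 81.8, 72.1, 70.2 and 72.9 CPM in siCtrl replicates 1 to 5. The groups did not overlap, and 4 of the siUSP9X libraries lay close together, with replicate 2 well below them. The log2 fold change was -0.51 ± 0.13 (SE, edgeR adjusted p = 0.0361, n = 5 each). Without siUSP9X replicate 2 it was -0.42 ± 0.08 (SE, edgeR adjusted p = 0.00127). The call was also kept without siCtrl replicate 1 (adjusted p = 0.0466) and ended without each of the other 8 libraries. The adjusted p was then 0.0564, 0.0618, 0.0512 and 0.0713 without siUSP9X replicates 1, 3, 4 and 5, and 0.0964, 0.089, 0.0792 and 0.0873 without siCtrl replicates 2 to 5. In those 8 fits 1.33% to 2.57% of all tested genes were lower, against 3.22% with all libraries.

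The other relatives of S18 gave lower siUSP9X levels that did not pass the threshold with all libraries. MRPS18A, of the large subunit (chr6:43671303-43687791, minus strand, GRCh38), had 25.7, 11.9, 25.03, 24.3 and 24.0 CPM in siUSP9X libraries and 23.9, 37.8, 35.2, 30.9 and 29.7 CPM in siCtrl libraries. Its groups overlapped at siCtrl replicate 1, and its log2 fold change was -0.51 ± 0.20 (SE, edgeR adjusted p = 0.14). It fell without siUSP9X replicate 2, by 0.34 on the log2 scale (SE 0.11, edgeR adjusted p = 0.0338). MRPS18C, the small subunit protein bS18m (chr4:83455932-83469735, plus strand, GRCh38), had 8.82, 9.03, 8.38, 10.5 and 11.2 CPM in siUSP9X libraries and 11.1, 13.2, 14.5, 10.7 and 11.3 CPM in siCtrl libraries. Its groups overlapped, and its log2 fold change was -0.34 ± 0.13 (SE, edgeR adjusted p = 0.123), and -0.32 ± 0.13 without replicate 2 (edgeR adjusted p = 0.0761). MRPS18A shares 47.0% of its exon bases with RSPH9 and MRPS18C 40.2% with ABRAXAS1, both on the opposite strand, and it is not stated whether counting used strand. RSPH9 had 81 counts in all and ABRAXAS1 1182, against 5044 for MRPS18A and 2031 for MRPS18C.

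MRPS26, a mitochondria-specific small subunit protein (chr20:3045945-3048254, plus strand, GRCh38), had 36.4, 8.75, 41.0, 42.8 and 41.4 CPM in siUSP9X libraries and 43.9, 64.5, 54.6, 59.8 and 52.3 CPM in siCtrl libraries. All siUSP9X libraries were below all siCtrl libraries, and replicate 2 was far below its group. The log2 fold change was -0.69 ± 0.33 (SE, edgeR adjusted p = 0.196) with all libraries and -0.44 ± 0.10 (edgeR adjusted p = 0.0044) without replicate 2. The only other small subunit members past the threshold without it were MRPS2 (-0.31), MRPS15 (-0.26) and MRPS21 (-0.36), log2 fold changes.

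In the large subunit, no member passed the threshold with all libraries. MRPL49, which encodes mL49 (chr11:65122183-65127371, plus strand, GRCh38), had 87.2, 39.2, 90.6, 87.6 and 94.6 CPM in siUSP9X libraries and 112, 134, 133, 135 and 123 CPM in siCtrl libraries. The groups did not overlap, and the log2 fold change was -0.68 ± 0.20 (SE, edgeR adjusted p = 0.0661), the member closest to the threshold among those not called. Without replicate 2 it was -0.50 ± 0.08 (edgeR adjusted p = 0.00015), the smallest adjusted p of any member. MRPL49 shares exon bases with FAU (9.16% of its own) and SYVN1 (11.6%) on the opposite strand. FAU had 37635 counts in all and SYVN1 5892, against 19665 for MRPL49. MRPL54, encoding mL54 (chr19:3762664-3768575, plus strand, GRCh38), had 8.58, 0.941, 10.1, 11.0 and 7.96 CPM in siUSP9X libraries and 9.52, 12.9, 14.4, 12.8 and 13.8 CPM in siCtrl libraries. Its groups overlapped at siCtrl replicate 1, and its siUSP9X replicate 2 level was 0.1 of the mean of the other siUSP9X libraries. The log2 fold change was -0.72 ± 0.43 (SE, edgeR adjusted p = 0.279), and -0.43 ± 0.14 without replicate 2 (edgeR adjusted p = 0.029).

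**Figure D2:**
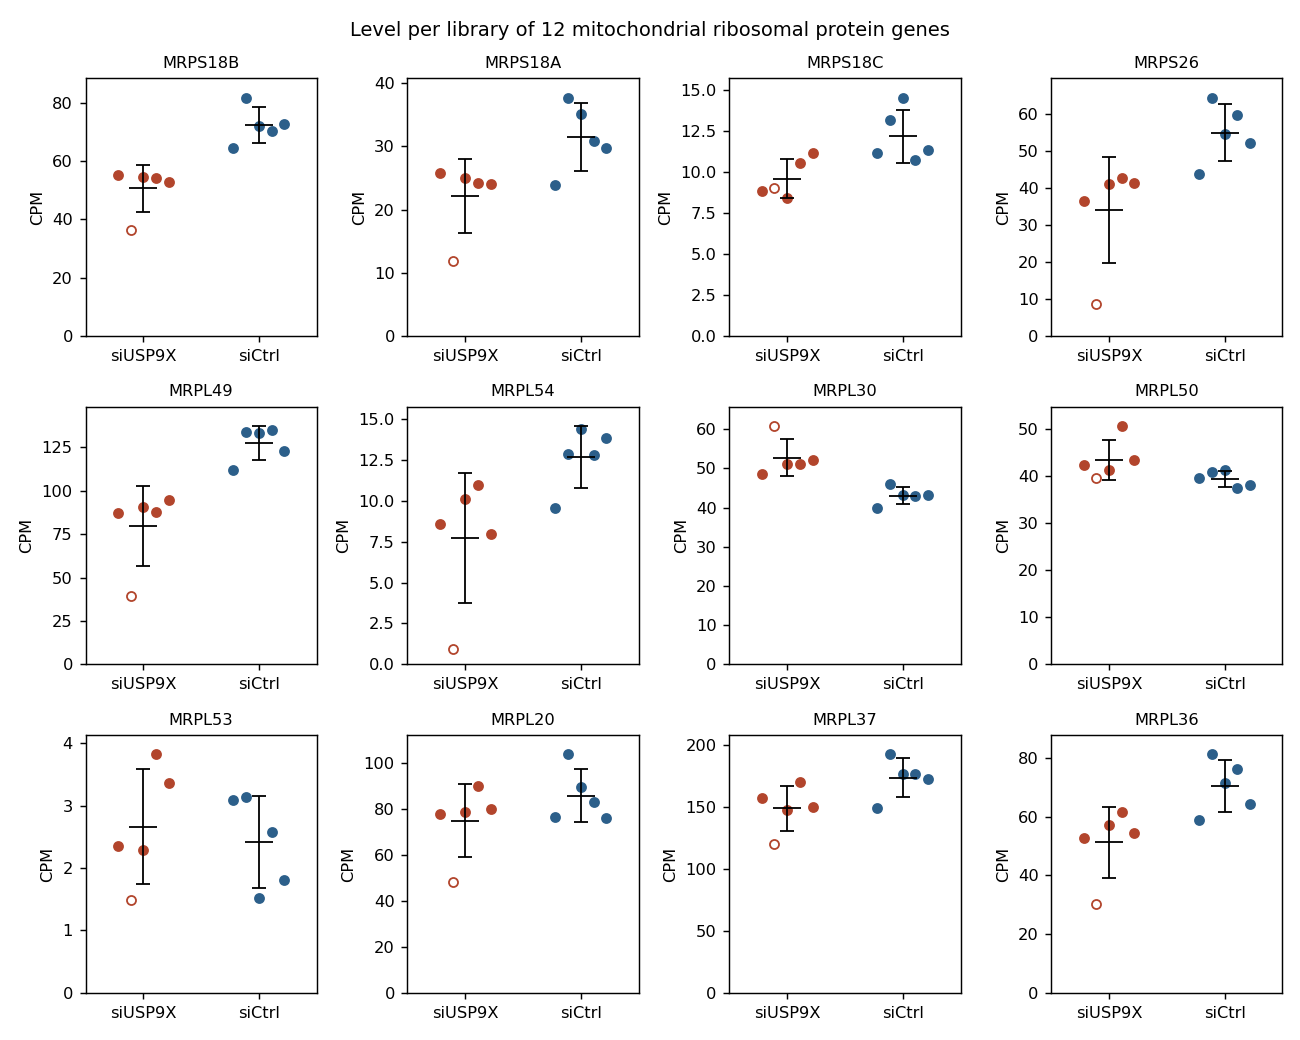
CPM per library of 12 members in siUSP9X (left) and siCtrl (right), with open circles for siUSP9X replicate 2 and bars for the mean and SD of 5 libraries. The open circle is the lowest siUSP9X value in 10 of the 12 panels, the exceptions being MRPL30 and MRPS18C.

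MRPL30 stood apart in direction. It encodes uL30m, a large subunit protein with a bacterial counterpart (chr2:99181079-99197626, plus strand, GRCh38), and had 48.4, 60.8, 51.1, 51.2 and 52.1 CPM in siUSP9X libraries against 39.9, 45.9, 43.1, 43.0 and 43.3 CPM in siCtrl libraries. Every siUSP9X library was above every siCtrl library. The log2 fold change was 0.29 ± 0.10 (SE, edgeR adjusted p = 0.0827), and MRPL30 rose without replicate 2 (0.24 ± 0.08, edgeR adjusted p = 0.033). MRPL30 shares 19.5% of its exon bases with AC079447.1 and 13.1% with AC092587.1 on the same strand, which had 20 and 15 counts in all. MRPL50 had 42.4, 39.6, 41.3, 50.7 and 43.4 CPM in siUSP9X libraries and 39.6, 40.8, 41.4, 37.4 and 38.1 CPM in siCtrl libraries, with overlap and a log2 fold change of 0.14 ± 0.10 (edgeR adjusted p = 0.344). MRPL53 was low, at 2.35, 1.495, 2.29, 3.82 and 3.37 CPM in siUSP9X and 3.08, 3.13, 1.52, 2.58 and 1.80 CPM in siCtrl, with a log2 fold change of 0.13 ± 0.29 (edgeR adjusted p = 0.776). The ranges of both MRPL50 and MRPL53 overlapped between groups. MRPL53 shares 45.2% of its exon bases with CCDC142 on the same strand, which had 1448 counts in all, against 472 for MRPL53. The part of this overlap in the low level was not tested.

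Levels between members can be compared only per length, here CPM per kb of the principal transcript. MRPL20, with a bacterial counterpart of the same number, was highest in siCtrl at 119 ± 15.97 CPM per kb, and stood at 104 ± 21.8 CPM per kb in siUSP9X (SD, n = 5 each). Its libraries held 77.7, 48.2, 78.8, 90.0 and 80.2 CPM in siUSP9X and 76.4, 104, 89.7, 83.0 and 75.97 CPM in siCtrl, which overlapped. Next came MRPL37, at 157, 120.1, 147, 169.6 and 149.8 CPM in siUSP9X and 149, 192, 177, 176 and 173 CPM in siCtrl, overlapping. MRPL36 (bL36m, with a bacterial counterpart) had 52.7, 30.4, 57.2, 61.4 and 54.5 CPM in siUSP9X and 58.9, 81.1, 71.5, 76.04 and 64.2 CPM in siCtrl, also overlapping. Log2 fold changes were -0.19 ± 0.16 (edgeR adjusted p = 0.434), -0.22 ± 0.11 (0.217) and -0.46 ± 0.18 (0.125) for MRPL20, MRPL37 and MRPL36 with all libraries. In siCtrl cells the tested large subunit members ran down to 1.02 CPM per kb (MRPL38), and the highest small subunit members were MRPS15 (90.6 CPM per kb), MRPS34 (86.4) and MRPS7 (69.6). The median over tested members in siCtrl was 31.9 CPM per kb for the large subunit and 34.6 for the small subunit.

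MRPL23 (uL23m) and MRPS24 (uS3m) fell below the filter on low counts and were not tested. MRPL23 had 3 counts in siUSP9X libraries, all in replicate 5, and 1 count in siCtrl libraries. MRPS24 had 5, 3, 7, 8 and 4 counts in siUSP9X and 7, 5, 8, 3 and 4 counts in siCtrl, and shares 23.2% of its exon bases with URGCP-MRPS24 on the same strand.

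Summed over members, the means of both subunits were lower in siUSP9X cells. The 26 small subunit genes summed to 1166, 903, 1239.7, 1260.3 and 1255 CPM in siUSP9X libraries and to 1281, 1550.1, 1379.8, 1341 and 1315 CPM in siCtrl libraries, so every siUSP9X library was below every siCtrl library. The 51 large subunit genes summed to 2272, 1775, 2408, 2537 and 2387 CPM in siUSP9X and to 2424, 3087, 2777, 2626 and 2553 CPM in siCtrl, which overlapped. The ratio of the siUSP9X mean to the siCtrl mean over all 78 genes was 0.846 (3460 ± 447 and 4088 ± 360 CPM, SD), and 0.893 without replicate 2. The large to small ratio of summed CPM was 1.95 ± 0.04 in siUSP9X and 1.96 ± 0.05 in siCtrl. The per-library ratios overlapped, at 1.90 to 2.01 in siUSP9X and 1.89 to 2.01 in siCtrl, while replicate 2, lowest in both sums, had a ratio of 1.97. Without replicate 2, 13 of 50 large subunit members (26%) and 5 of 25 small subunit members (20%) were lower. Of the members with bacterial counterparts 10 of 44 were lower (22.7%), and of those without 8 of 31 (25.8%). In the same fit 11.5% of all tested genes were lower. The differences between these classes of members were not tested.

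**Figure D3:**
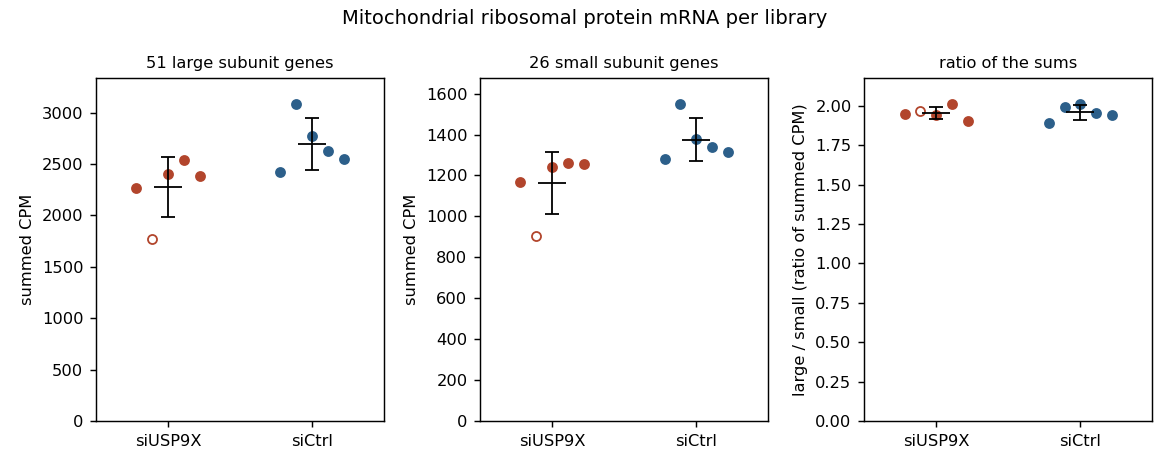
Summed CPM of the 51 large and 26 small subunit genes per library, and the ratio of the sums, in siUSP9X (left) and siCtrl (right). Bars show mean and SD of 5 libraries, and the open circle is siUSP9X replicate 2, which lies lowest in both sums and within the others in the ratio.

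The departure of siUSP9X replicate 2 varied with transcript sequence. Across the 76 members, its log2 ratio to the mean of the other siUSP9X libraries had a Pearson r of -0.74 (Spearman -0.74) with transcript GC content and 0.42 (Spearman 0.46) with log length, and over 13862 tested genes the same r were -0.62 and 0.50. These are descriptions across genes, which share the library. MRPL12 (bL12m, which forms the stalk of the large subunit) had 64.6% GC and stood in replicate 2 at 0.0758 of the mean of the other siUSP9X libraries, with 37 counts there and 426 to 471 in the other 4. MRPL1 (uL1m), at 39.1% GC, stood at 2.12 times and MRPS30, at 46.4%, at 1.63 times that mean. The coefficient of variation of members had a median of 23.8% across siUSP9X libraries, 6.88% without replicate 2 and 12.5% across siCtrl libraries. siCtrl replicate 2 held the highest siCtrl level for 61 of the 76 members. The part of length and GC content in the calls was not tested directly. With offsets for both and all libraries, 9 members were lower (11.8% of members, 11.3% of all genes). The members' median log2 fold change was then -0.16, against -0.27 without offsets. With offsets and without replicate 2, 27 were lower (35.5% of members, 18.7% of all genes), all 18 named above among them. The median was then -0.12, against -0.16 without offsets. Across the 76 members, the log2 fold change had a Pearson r with GC content of -0.65 with all libraries and -0.42 without replicate 2. Over all tested genes with an annotated transcript these r were -0.42 and -0.17.

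**Figure D4:**
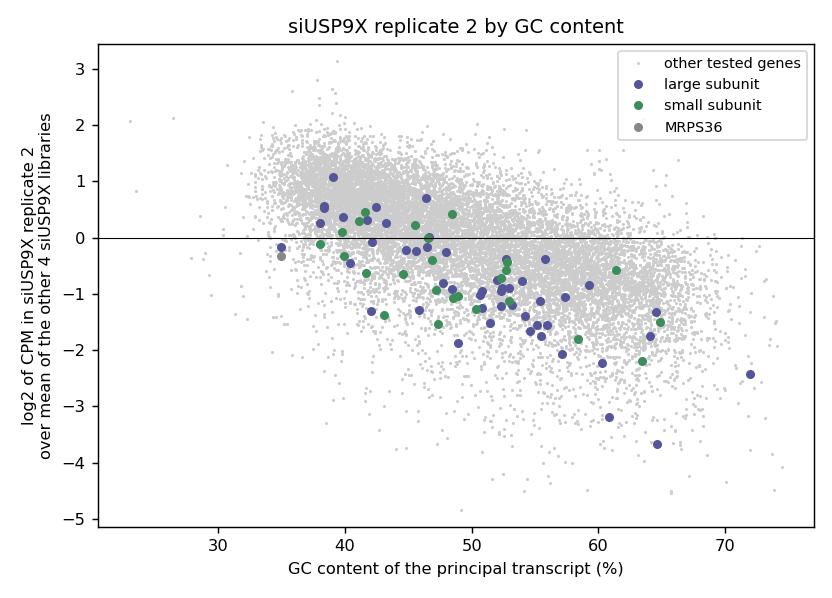
Log2 of CPM in siUSP9X replicate 2 over the mean of the other 4 siUSP9X libraries against transcript GC content, for large subunit members, small subunit members and MRPS36 over all other tested genes (grey). Members with more GC lie lower, with r = -0.74 across the 76.

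Of the 5 mitochondrial ribosomal proteins with other symbols, 0 passed the threshold in edgeR with or without replicate 2, and 0 had an unadjusted p under 0.05. With all libraries, 3877 of all 13934 tested genes had such an unadjusted p. Without replicate 2 the log2 fold changes of the 5 were -0.08 for DAP3, 0.06 for PTCD3, -0.21 for CHCHD1, -0.22 for AURKAIP1 and -0.23 for GADD45GIP1. Among 29 assembly and ribosomal RNA modification genes, 1 fell and 0 rose with all libraries, where 3.22% of all tested genes were lower and 4.09% higher. The gene that fell was RPUSD4, a pseudouridine synthase (37.9 ± 2.19 CPM in siUSP9X and 48.4 ± 3.90 CPM in siCtrl, log2 fold change -0.36 ± 0.10, edgeR adjusted p = 0.0445). Without replicate 2 the assembly and modification genes gave 8 lower (27.6%, against 11.5% of all tested genes) and 2 higher (6.90%, against 11.9%), with METTL17, TFB1M and MTERF3 among the 8.

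Among 16 genes of mitochondrial translation and protein insertion, GFM1, the elongation factor that moves the ribosome along the message, fell. It averaged 33.4 ± 8.61 CPM in siUSP9X and 61.3 ± 4.31 CPM in siCtrl, with every siUSP9X library below every siCtrl library. The log2 fold change was -0.87 ± 0.15 (SE, edgeR adjusted p = 0.00853), and -1.05 without replicate 2. Of 20 genes that charge mitochondrial transfer RNAs (synthetases and the amidotransferase subunits GATB, GATC and QRSL1) VARS2, the valyl-tRNA synthetase, was lower (-0.42 ± 0.11, edgeR adjusted p = 0.0372), and of 22 genes of mitochondrial DNA maintenance, transcription and RNA processing ELAC2, which trims the 3′ end of transfer RNAs, was lower (-0.44 ± 0.09, edgeR adjusted p = 0.018). Of 18 import genes GRPEL1, a co-chaperone of the import motor, was lower (-0.48 ± 0.10, edgeR adjusted p = 0.0178). With all libraries, each of these lists gave 1 gene lower and 0 higher, where 3.22% of all tested genes were lower and 4.09% higher. Without replicate 2, where 11.5% of all tested genes were lower and 11.9% higher, the translation and insertion genes gave 3 lower (18.8%) and 1 higher (6.25%), and the charging genes 4 (20%) and 1 (5%). The genes of DNA maintenance, transcription and RNA processing gave 3 (13.6%) and 1 (4.55%), and the import genes 4 (22.2%) and 0.

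Among 8 tested regulators of mitochondrial biogenesis, ESRRA, a nuclear receptor that activates genes of energy metabolism, fell to 17.0 ± 6.43 CPM in siUSP9X, against 40.9 ± 6.48 CPM in siCtrl (log2 fold change -1.26 ± 0.29, edgeR adjusted p = 0.0267). Its siUSP9X replicate 2 library held 5.59 CPM and the others 19.1 to 20.7 CPM, and the log2 fold change without it was -1.04. GABPA, an ETS factor, was at 56.0 ± 27.7 CPM in siUSP9X and 35.4 ± 4.26 CPM in siCtrl, without passing the threshold with all libraries (log2 fold change 0.66, edgeR adjusted p = 0.126). Its siUSP9X replicate 2 library held 104.9 CPM and the others 36.9 to 47.4 CPM, and GABPA rose without it (log2 fold change 0.31, edgeR adjusted p = 0.0392). With all libraries the 8 regulators gave 1 lower and 0 higher, against 3.22% and 4.09% of all tested genes. The log2 fold change was positive for 5 of the 8. Without replicate 2 they gave 1 lower (12.5%, against 11.5% of all tested genes) and 1 higher (12.5%, against 11.9%).

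The 15 mitochondrially encoded genes gave 0 lower and 0 higher with all libraries (edgeR), with a median log2 fold change of 0.16. Over all tested genes 3.22% were lower and 4.09% higher. An unadjusted edgeR p under 0.05 was found for 3 of the 15, and for 3877 of all 13934 tested genes. Without replicate 2 the mitochondrially encoded genes gave 0 lower and 1 higher (6.67%), against 11.5% and 11.9% of all tested genes. The ribosomal RNAs were highest in siUSP9X replicate 2, with MT-RNR1 at 1893 CPM there, 600.04 to 701 CPM in the other siUSP9X libraries and 581 to 762 CPM in siCtrl. MT-RNR2 was at 15828 CPM there, 4418 to 5581 CPM in the other siUSP9X libraries and 3808 to 4493 CPM in siCtrl, and was the gene that rose without replicate 2 (log2 fold change 0.25, edgeR adjusted p = 0.0244). These libraries were selected for poly(A), so the levels of the ribosomal RNAs are not those of total RNA.

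The cytosolic ribosomal proteins, which form the other ribosome of the cell, were also lower in siUSP9X replicate 2. Of 84 tested, 0 passed the threshold with all libraries (edgeR, median log2 fold change -0.34). The shares over all tested genes were 3.22% lower and 4.09% higher. An unadjusted edgeR p under 0.05 was found for 17 of the 84, and for 3877 of all 13934 tested genes. Without replicate 2, 19 of the 84 were lower (22.6%, against 11.5% of all tested genes, median -0.20) and 0 were higher (11.9% of all tested genes). Their summed level was 43021 ± 10686 CPM in siUSP9X and 55042 ± 6671 CPM in siCtrl (SD, n = 5 each). Both sets of ribosomal protein genes thus had medians below that of all tested genes, and the difference between the sets was not tested.

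**Figure D5:**
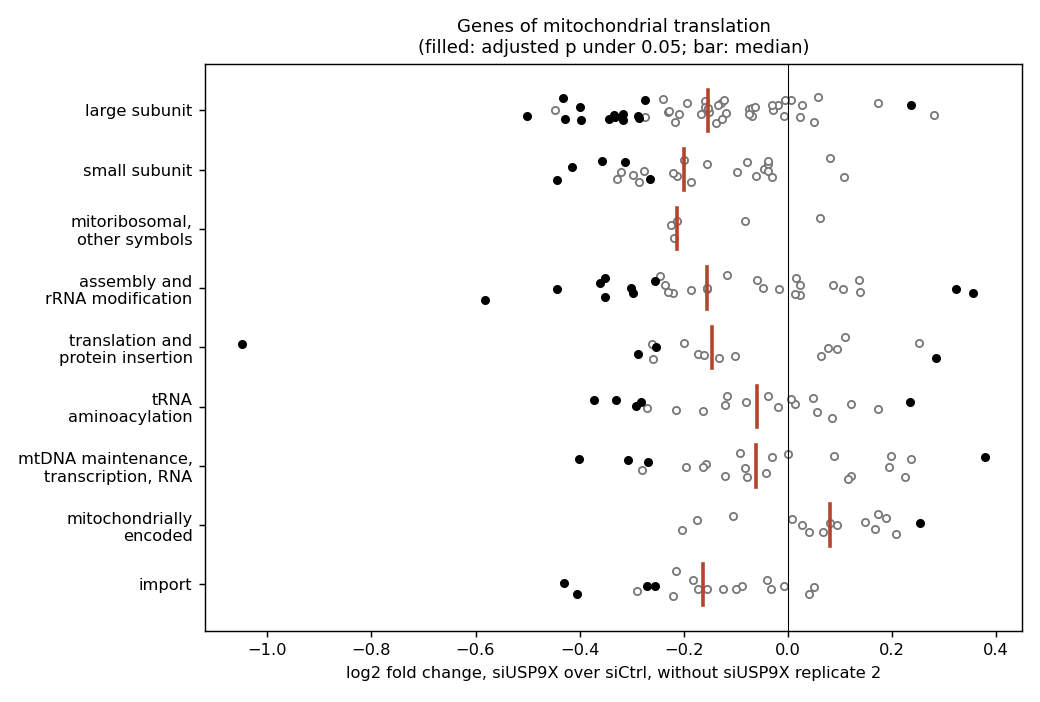
Log2 fold change without siUSP9X replicate 2 of the tested genes in the groups named on the axis, 1 point per gene, filled where the adjusted p was under 0.05, with the median as a bar. Among the plotted groups the median is positive for the mitochondrially encoded genes (0.08) and negative for the others.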

How the data were processed

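Groups follow the treatment label, and replicate numbers follow the titles. The deposited values are raw counts per gene symbol, 1 column for each library. Per the submitters' processing notes, hg38, RSEM and DESeq2 were used, without versions or roles, and whether the authors rounded estimates is not stated. Per the labels' protocols, libraries were made from TRIzol RNA with a stranded mRNA kit.

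The test was edgeR's robust quasi-likelihood fit (edgeR 4.0.16, R 4.3.3) with TMM factors, filterByExpr at a minimum of 10 counts, and a model holding group alone. Two-sided p-values were adjusted by Benjamini-Hochberg over every tested gene and read at 0.05. The SE is the fold change divided by the square root of the F statistic. CPM use the TMM-scaled library total, and CPM per kb divide by the principal transcript of GENCODE release 29, where each of the 78 members matched 1 gene. Log2 ratios of replicate 2 used CPM plus 0.1. The fit was tested on simulated counts with the same dispersion for every gene. No simulated library stood apart as siUSP9X replicate 2 did, so that test does not cover such a library.

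Described in full were members past the threshold, the 3 largest log2 fold changes in each direction, the 3 highest levels per length, the 3 relatives of S18 and the members below the filter. From each list, up to 4 tested genes with the smallest p could be named. The members and lists were chosen with earlier results of these data known. No pair of replicates agreed within sampling noise (chi-square per degree of freedom of at least 5.25), so each library counted once. Of the members, 34 have annotated pseudogenes in the table, and only those of MRPS31 held over 5% of the member's counts (6.82%). Exon bases are shared with another gene by 41 members, in 29 of them on the opposite strand.

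As alternatives, other tools (DESeq2 1.42.0 and limma-voom, limma 3.58.1), other scalings (library totals, upper quartiles and the DESeq2 factors), other filters (none, or 5 CPM in at least 5 libraries) and other designs were run: the replicate number as a block, spline offsets for transcript length and GC content, both together, a threshold of 0.01, and each library left out.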

Additional observations from a re-analysis of the deposited data

Results flagged for a closer look

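Among 40 groups of 5 libraries behind the reported values, 9 had 1 library far from the others relative to the group's range, where chance gives about 5% of independent groups. In each of the 9 that library was siUSP9X replicate 2. The groups share the same 10 libraries, the sums include the listed genes, and some genes were picked by their p or fold change, so the 9 are not independent. It was lowest for MRPS18B (36.5 CPM, others 52.9 to 55.1), MRPS18A (11.9 CPM, others 24.0 to 25.7) and MRPS26 (8.75 CPM, others 36.4 to 42.8). It was also lowest for MRPL49 (39.2 CPM, others 87.2 to 94.6) and MRPL36 (30.4 CPM, others 52.7 to 61.4). The summed level of the small subunit was lowest there, at 903 CPM with the others between 1166 and 1260.3 CPM. The summed cytosolic ribosomal proteins were at 24466 CPM there, with the others between 44525 and 51604 CPM. It was highest for MT-RNR1 (1893 CPM, others 600.04 to 701) and MT-RNR2 (15828 CPM, others 4418 to 5581). Over both groups of all 76 tested members, 36 of 152 groups had such a library, and 31 of these were siUSP9X replicate 2, lowest in 24 and highest in 7. No explanation was tested.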

How the results depend on the processing

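The count of members lower in siUSP9X was 1 with all libraries (3.22% of all genes lower). It was 0 with library totals (3.09% of all genes), 0 with no filter (1.07%) and 0 at a threshold of 0.01 (0.976%). It was 5 with DESeq2 (6.58% of members, 7.74% of all genes), 9 with length and GC offsets (11.8% and 11.3%), and 3 with these offsets and the replicate block (3.95% and 6.99%). With the replicate block alone it was 0, where 0.409% of all genes were lower and 0.244% higher. The MRPS18B edgeR adjusted p was then 0.189. Same-numbered libraries had correlations of -0.42 to 0.23, with 1 of 5 pairs over 0.1. As 0 siUSP9X and 1 siCtrl library correlated best with its own number, the numbers were not taken to pair the libraries. Over all pairings the highest correlation was 0.57, of siUSP9X replicate 2 with siCtrl replicate 1. The lowest was -0.52, of siUSP9X replicate 4 with siCtrl replicate 1. Leaving out 1 library gave 0 to 18 lower and 0 to 1 higher, the upper ends without siUSP9X replicate 2. Over all genes the same fits gave 1.33% to 11.5% lower and 1.2% to 11.9% higher, the upper ends again without that library. DESeq2 called 1 higher, MRPL30 rising without replicate 2 too. Chosen after the data were seen, offsets without siUSP9X replicate 2 gave 27 lower (35.5% of members, 18.7% of all genes) and 1 higher, DESeq2 size factors without it 19 (25%, 11.7%) and 1, and the block without both number 2 libraries 17 (22.4%, 13.3%) and 1. The other count alternatives stayed at 1 lower and 0 higher. MRPL1, not called with all libraries (0.05, edgeR adjusted p = 0.9), was lower with offsets without siUSP9X replicate 2 (-0.27, edgeR adjusted p = 0.0426), the 1 value that changed sign and passed the threshold. Leaving out that library alone gave -0.24 (edgeR adjusted p = 0.204). The cause was not tested. Of 1744 alternative values for single members, 1637 stayed on the same side of the threshold, 100 of them, not called in either fit, with a changed sign. A further 95 in 26 members passed the threshold only in the alternative, and 11, all MRPS18B, lost it. USP9X stayed lower throughout. MRPL23 and MRPS24 had too few counts to test, and the cause was not tested.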
